A study of Mus musculus with 4 samples.

Results

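Lysosome genes were followed in whole mouse embryos that lack the orphan nuclear receptor Nr6a1 (Gcnf in the labels). The members are 31 genes listed for their known place in the lysosome. The set was chosen by way of a measured value, since prosaposin (Psap) had been noticed as raised on these same arrays, and the other 30 were added for their role with results of these arrays already known. A gene was measured where the platform annotation gives a probe set to that symbol alone, and its probe set with the highest mean signal stood for it. By this rule 30 of the 31 members were measured, among 18193 genes in all, and the tetraspanin gene Cd63 had no matched probe set.

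Each whole embryo gave the RNA for 1 Affymetrix mouse array, with 2 wildtype embryos (labelled wt) and 2 homozygous mutants (labelled Gcnf-/-, called Nr6a1-/- or mutants here). The labelled stage is E9.0 in both groups, and the methods give a collection window that reaches beyond it. The line was kept on a background that the methods write as C56BL/6, every cell of a homozygote carries the mutant allele, and homozygotes die during embryogenesis. Neither group received a treatment. No somite number or litter is stated for any embryo.

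Lysosomes are acidic organelles in which hydrolases break down proteins, sugar chains and lipids that arrive by endocytosis or autophagy. Most hydrolases reach them through mannose 6-phosphate receptors, a proton pump keeps the lumen acidic, and heavily glycosylated membrane proteins line the boundary. In many cell types TFEB and its relatives switch on lysosomal genes by binding an E-box with the core CACGTG. In the early mouse embryo the visceral endoderm of the yolk sac is known for its large lysosomes.

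The stretch directly before the transcription start was examined for this E-box, because it is what lysosomal promoters are known to share and it played no part in the choice of the members. RefSeq windows (build GRCm38.p6, 250 bases before to 50 after each annotated start) were found for 25 of the measured members. The motif CACGTG, which reads the same on both strands, lay in a window of 11 of these 25 members (44%), against 10.2% of all genes with a probe set and a window and 8.09% of all genes with a window. By windows, 11 of 29 members' windows (37.9%) and 7.15% of all windows held it. The longer TCACGTGA, which contains CACGTG, lay in windows of 5 members (20%) against 1.63% of the genes with a probe set. A direct repeat of AGGTCA with no spacer, the element to which Nr6a1 is known to bind, was found on either strand in windows of 0 of 25 members and in 2 of all 32851 windows. These matches are a description of letters in a short window.

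The 100 bases before the start are shown for the members on which the results turn. Psap and Grn have the largest differences between the genotypes and no CACGTG in their windows, while Glb1, the next in size, has 1. Lamp1 and Mcoln1 hold the motif 4 and 2 times in these 100 bases and differed little between genotypes. Capitals mark CACGTG, and each line runs 5′ to 3′ towards the start on the strand named.
Psap, first annotated start, plus strand, chr10:60277528-60277627: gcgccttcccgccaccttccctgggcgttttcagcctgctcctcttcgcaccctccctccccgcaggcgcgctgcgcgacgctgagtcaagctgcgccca
Grn, plus strand, chr11:102430407-102430506: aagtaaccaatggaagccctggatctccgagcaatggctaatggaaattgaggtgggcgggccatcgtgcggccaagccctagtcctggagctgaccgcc
Glb1, plus strand, chr9:114400978-114401077: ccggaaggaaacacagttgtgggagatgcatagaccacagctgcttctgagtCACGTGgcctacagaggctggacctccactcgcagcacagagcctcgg
Lamp1, plus strand, chr8:13159061-13159160: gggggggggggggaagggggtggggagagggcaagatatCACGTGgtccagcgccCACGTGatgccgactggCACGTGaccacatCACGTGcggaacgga
Mcoln1, plus strand, chr8:3500419-3500518: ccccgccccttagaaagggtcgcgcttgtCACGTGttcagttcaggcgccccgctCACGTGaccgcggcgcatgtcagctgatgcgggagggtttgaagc

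**Figure D1:**
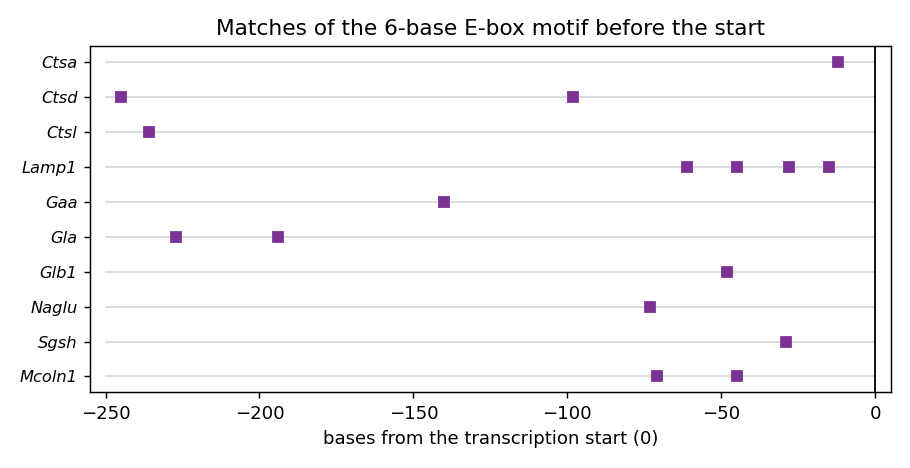
Position of each CACGTG match that lies wholly before the annotated transcription start (squares, in bases before the start at 0, vertical line) for the 10 members with such a match. Grey lines are the 250 bases upstream, a part of the 300 searched. Lamp1 has 4 matches within 61 bases of the start. A further match of Ctsa and the 1 match of Atp6v0d1 do not lie wholly before the start and are not drawn.

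The ranges of members with and without the motif overlapped widely. The 11 with CACGTG had a median log2 fold change of 0.16 (-0.16 to 0.51), with 10 above wildtype. The 14 without it had a median of 0.13 (-0.21 to 0.78), with 10 above wildtype. The windows of Psap and Grn belong to the second group, where the 0.78 is that of Psap, which led to the set.

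Signals are log2 values that the robust multi-array average (RMA) gave. Across probe sets the wildtype arrays correlated at 0.9973, the mutant arrays at 0.9975 and pairs of different genotype at 0.9931 to 0.9952. Wildtype replicate 1 stood apart from the other 3 arrays in sex-specific genes and control probe sets. It had the signals of a female (Xist at 13.11, against 6.44 to 6.68 in the others) and the lowest poly-A spike signal, lower than the mean of the others by a log2 difference of -0.72. The 18S ribosomal RNA controls read higher in both mutants, on average by 1.06 on the log2 scale. The part of RNA quality and embryo sex in the results below was not tested, and the values of Psap, Grn, Glb1 and Gaa are also given without wildtype replicate 1. The Nr6a1 probe set with the highest mean signal read 11.53 and 11.80 in wildtype and 11.87 and 12.14 in the mutants, which does not check the genotype labels, since the place of these probes relative to the deletion is not stated.

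As a set, most lysosome genes lay a little above wildtype in the mutants. Psap and the progranulin gene Grn stood at 1.72-fold and 1.68-fold, and no member reached 2-fold in either direction. Of the 29 measured members other than Psap, 22 were above wildtype (75.9%), and with Psap 23 of 30 (76.7%). The shares were 47.2% of all genes and 47.4% of genes with a mean log2 signal of at least 6. The members' median log2 fold change was 0.15, and 0.15 without Psap, against a median of -0.01 over all genes. All 30 members had a mean log2 signal of at least 6, a level reached by 13508 of the 18193 genes. The members were chosen with results known, so that these shares are a description and carry no test.

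A gene was called where its adjusted p was at most 0.05 and its change at least 2-fold (limma, adjusted over 45037 probe sets). The p-values measure the spread between these embryos only. Psap is described without a test, since it led to the set. Of the 29 other members, 0 were called higher and 0 lower, against 0.423% and 0.121% of all genes. Whatever the fold, 1 of 29 was higher at an adjusted p of 0.05, Grn, against 1.02% of all genes, and 0 were lower, against 0.374%. At an unadjusted p under 0.05 in limma, 11 of the 29 were higher (37.9%, against 11.9% of all genes) and 1 was lower (3.45%, against 11.9%). Among genes with a mean log2 signal of at least 6, these shares were 14.4% and 14.1%. In 16 of the 29 both mutant embryos read above both wildtypes (55.2%, against 26.2% of all genes), and in 4 they read below (13.8%, against 30.4%). Genes with a mean log2 signal of at least 6 had 30% above and 33.9% below. With 1 array left out in turn, a count added after the data were seen, every remaining mutant lay above every remaining wildtype in 19 of 29 members (65.5%). The share of all genes was then 35.4% to 39.5%. Such a count cannot fall when an array is left out, so that it does not check the result. For a single gene, an exact two-sided permutation test of 2 against 2 embryos gives no p below 0.333. Since whole embryos were used, more cells that express a gene and more of its RNA per cell cannot be told apart.

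**Figure D2:**
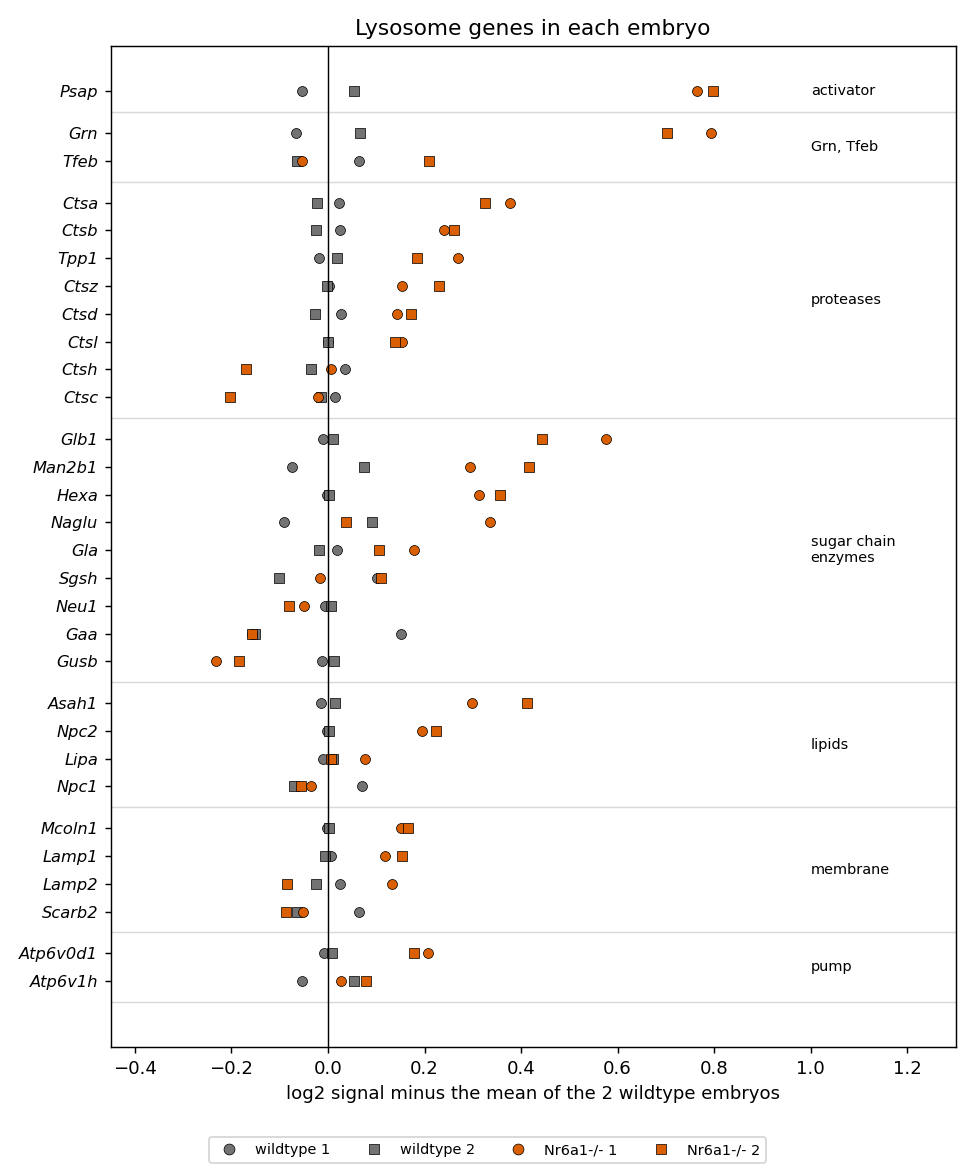
Log2 signal of each embryo minus the mean of the 2 wildtype embryos (horizontal axis) for the 30 measured members, ordered by role and by size of change; grey is wildtype, orange is Nr6a1-/-, circles and squares are replicates 1 and 2. Psap and Grn lie farthest to the right in both mutants, at 0.70 or more above the wildtype mean. Of the members other than Psap, 16 have both mutants to the right of both wildtypes (55.2%, against 26.2% of all genes).

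Psap encodes prosaposin, which is cut in the lysosome into saposins, small proteins that present sphingolipids to their hydrolases. Its log2 signal was 11.17 and 11.28 in the wildtype embryos and 11.99 and 12.02 in the mutants. Both mutants lay above both wildtypes, at means of 11.22 ± 0.08 and 12.00 ± 0.02 for wildtype and mutants (SD, n = 2 per genotype). The log2 fold change was 0.78 ± 0.08 (limma's moderated SE), or 0.73 without wildtype replicate 1. A second probe set of Psap read 10.45 and 10.54 in wildtype and 11.43 and 11.39 in mutants, a log2 fold change of 0.91 ± 0.07. Both probe sets measure the same embryos, so that the second is no independent support of the first. A related cofactor outside the set, the GM2 ganglioside activator Gm2a, stood at 0.46 ± 0.09 without passing (adjusted p = 0.0944).

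Grn encodes progranulin, a secreted glycoprotein that is taken to lysosomes by sortilin or together with prosaposin and is cut there into granulins. It read 11.08 and 11.22 in wildtype and 11.94 and 11.85 in mutants, with no overlap between the genotypes. The log2 fold change was 0.75 ± 0.08 with an adjusted p of 0.0414 in limma, short of 2-fold. All 3 Grn probe sets were higher, at 0.75, 0.65 and 0.72, each at an adjusted p between 0.0335 and 0.0414, and the last of them has an identifier without the suffix for shared sequence. With 1 array left out Grn stood at 0.68 (without wildtype replicate 1) to 0.81 and did not pass (adjusted p = 0.136 to 0.281), nor did it with the replicate number as a block (adjusted p = 0.177). Sort1, the gene of sortilin, read 10.12 and 10.19 in wildtype and 10.15 and 10.26 in mutants, a log2 fold change of 0.05 ± 0.08 (adjusted p = 0.789).

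Tfeb, the transcription factor that activates many lysosomal genes, showed no separation of the genotypes. It read 7.73 and 7.61 in wildtype and 7.62 and 7.88 in mutants, a log2 fold change of 0.08 ± 0.11 (adjusted p = 0.767). Among its relatives, Tfec read 8.21 and 8.35 in wildtype and 9.10 and 8.91 in mutants, a log2 fold change of 0.72 ± 0.10 that did not pass (adjusted p = 0.0528). Mitf stood at 0.43 ± 0.09 (adjusted p = 0.105) and Tfe3 at -0.01. The list of TFE factors and of mTORC1 components that dock on the lysosome had 8 of 21 measured genes above wildtype and a median of -0.02. In limma 0 of its genes were at an adjusted p of 0.05. At an unadjusted p under 0.05, 2 were higher and 2 lower (9.52% each, against 11.9% of all genes each way). Fnip2, a partner of folliculin, stood at -0.32 ± 0.07 (adjusted p = 0.109).

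Of the 8 lysosomal proteases, 6 lay above wildtype with both mutants above both wildtypes (75%), and none passed the adjusted threshold. The same held for 26.2% of all genes and 30% of genes with a mean log2 signal of at least 6. Ctsa, the carboxypeptidase that also protects beta-galactosidase and neuraminidase in a complex, had the highest log2 fold change of the group. It read 11.64 and 11.59 in wildtype and 12.00 and 11.94 in mutants, a log2 fold change of 0.35 ± 0.07 (adjusted p = 0.0936). Ctsb, a cysteine protease, stood at 0.25 ± 0.07, and Tpp1, a tripeptidyl peptidase, at 0.23 ± 0.07. The cysteine cathepsins Ctsz and Ctsl stood at 0.19 and 0.15, and the aspartic protease Ctsd at 0.16. The other 2 were on the opposite side. Ctsc, which activates serine proteases of white blood cells, read 12.45 and 12.42 in wildtype and 12.42 and 12.23 in mutants, a log2 fold change of -0.11 ± 0.09 in which the ranges all but met. It was -0.02 without mutant replicate 2 and -0.20 without mutant replicate 1. Ctsh, an aminopeptidase, read 12.63 and 12.57 in wildtype and 12.61 and 12.43 in mutants, where the genotypes overlapped (-0.08 ± 0.09).

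The 9 enzymes that remove sugars or sulfate from sugar chains had 6 above and 3 below wildtype. Both mutants read above both wildtypes in 44.4% of them and below in 33.3%, against 26.2% and 30.4% of all genes. Glb1, the beta-galactosidase that acts on GM1 ganglioside and keratan sulfate, read 9.42 and 9.44 in wildtype and 10.01 and 9.87 in mutants. Its difference of 0.51 ± 0.08 was the next in size after Psap and Grn and did not pass (adjusted p = 0.0630), and it was 0.50 without wildtype replicate 1. Man2b1, an alpha-mannosidase, read 9.94 and 10.09 in wildtype and 10.31 and 10.43 in mutants, a difference of 0.36 ± 0.09 (adjusted p = 0.128). Hexa, the alpha subunit of beta-hexosaminidase, read 11.80 in both wildtypes and 12.11 and 12.16 in mutants, a difference of 0.33 ± 0.07 (adjusted p = 0.0968). All of these had both mutants above both wildtypes, as did Gla, the alpha-galactosidase, at 0.14 ± 0.07. Naglu and Sgsh, which act in heparan sulfate breakdown, stood at 0.19 ± 0.13 and 0.05 ± 0.10, and their genotypes overlapped. Leaving out mutant replicate 1 brought Naglu to 0.04, and leaving out mutant replicate 2 brought it to 0.34.

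Gusb, the beta-glucuronidase, had the lowest log2 fold change of the members. It read 9.82 and 9.85 in wildtype and 9.60 and 9.65 in mutants, a log2 fold change of -0.21 ± 0.07 (adjusted p = 0.193). A second Gusb probe set stood at 0.00 ± 0.07, and the mean of both was -0.10, so that the difference rested on 1 of 2 probe sets. Gaa, the alpha-glucosidase that degrades glycogen, read 9.58 and 9.27 in wildtype and 9.27 in both mutants, a difference of -0.16 ± 0.12. This came from the single higher wildtype embryo, and without wildtype replicate 1 the difference was -0.01. Neu1, the neuraminidase, stood at -0.06 ± 0.07.

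Among genes of lipid breakdown and cholesterol export, Asah1 and Npc2 lay above wildtype in both mutants. Asah1, acid ceramidase, which completes the breakdown of sphingolipids to sphingosine, read 11.15 and 11.18 in wildtype and 11.46 and 11.58 in mutants, a log2 fold change of 0.35 ± 0.08 (adjusted p = 0.104). Npc2, the soluble cholesterol carrier, read 13.09 in both wildtypes and 13.29 and 13.32 in mutants (0.21 ± 0.07, adjusted p = 0.185). Its membrane partner Npc1 stood at -0.05 ± 0.08 and the acid lipase Lipa at 0.04 ± 0.07, and the genotypes overlapped in both.

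The membrane proteins differed less. Lamp1, an abundant glycoprotein of the lysosomal membrane, stood at 0.14 ± 0.07 and the calcium channel Mcoln1 at 0.16 ± 0.07, each with both mutants above both wildtypes. The genotypes overlapped for Lamp2, the receptor of chaperone-mediated autophagy, at 0.02 ± 0.10, and for Scarb2, the transport receptor of beta-glucocerebrosidase, at -0.07 ± 0.08. None of the 4 passed (adjusted p = 0.272 to 0.930). Lamp2 and Gla are X-linked, and without the female wildtype replicate 1 they stood at 0.05 and 0.16. Of the proton pump, Atp6v0d1 stood at 0.19 ± 0.07 (adjusted p = 0.211) and Atp6v1h at 0.05 ± 0.08 (adjusted p = 0.765).

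The probe sets of a gene did not all bear the same difference. The 30 members had 66 probe sets, 45 above and 21 below wildtype, with all probe sets of Psap among those above. Of the 21 members with several, 10 had all of them on the same side of 0. In Atp6v1h, Ctsb, Ctsc, Ctsl, Gla, Gusb, Lamp2, Lipa, Neu1, Npc2 and Sgsh they lay on both sides. The 5 probe sets of Ctsb ran from 0.25 for the one with the highest mean signal to -0.25 for one of the dimmer ones. Psap and Grn, by contrast, stood at 0.65 or more in each of their probe sets.

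**Figure D3:**
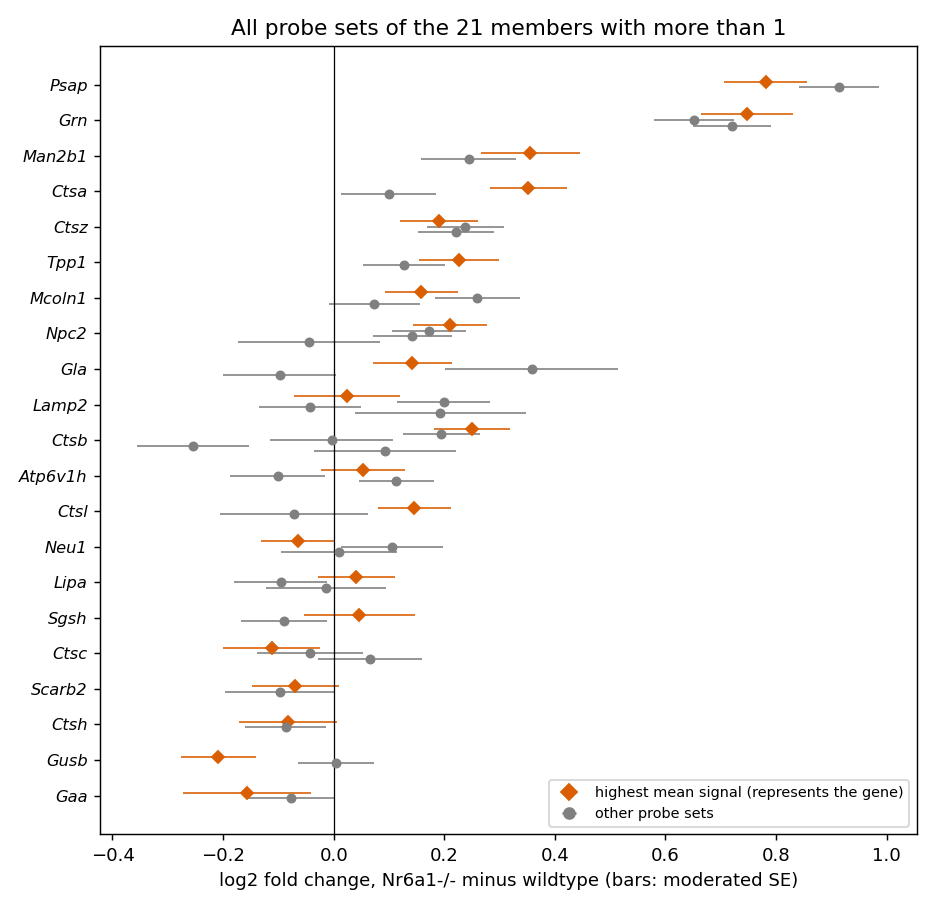
Difference of log2 signal between Nr6a1-/- and wildtype (horizontal axis, 2 embryos each, with bars for the moderated SE) in every probe set of the 21 members that have more than 1; orange diamonds stand for the gene in the text and grey circles are the others. All probe sets of Psap and Grn lie at 0.65 or higher, while those of 11 members fall on both sides of 0.

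Other lysosomal genes, listed for their role, had medians nearer to wildtype. Both mutants read above both wildtypes in 35.7% of the other hydrolases, 52.6% of the other membrane proteins and 33.3% of the other pump subunits. Both read below in 3.57%, 36.8% and 23.8%. The shares over all genes were 26.2% and 30.4%, and the set without Psap had 55.2% and 13.8%. Of 28 measured other hydrolases and their helpers, 20 lay above wildtype (median 0.07). At an unadjusted p under 0.05 in limma, 7 were higher and 0 lower (25% and 0%, against 11.9% of all genes each way). The cathepsin gene Ctsf was 1.70-fold higher, from 8.01 and 8.16 to 8.91 and 8.79 (log2 fold change 0.76 ± 0.09, adjusted p = 0.0430), the 1 gene of that list at an adjusted p of 0.05. Acp5, an acid phosphatase of osteoclasts and macrophages, stood at 0.75 ± 0.11 without passing (adjusted p = 0.0630). Of 19 other membrane proteins 10 were above wildtype (median 0.03), where the smallest p-values were those of the amino acid transporter gene Slc36a1 at 0.33 ± 0.07, Ostm1, a subunit of a chloride exchanger, at -0.31 ± 0.07 and Laptm4b at 0.28 ± 0.07. Of 21 other proton pump subunits 9 were above wildtype (median -0.01), from -0.29 for Atp6v0e2 to 0.18 for Atp6ap2, with Atp6v1c2 at -0.17. In the membrane and pump lists 0 genes were at an adjusted p of 0.05 in limma. At an unadjusted p under 0.05, 6 membrane genes were higher (31.6%) and 4 lower (21.1%), against 11.9% of all genes each way. In the pump list 1 was higher and 1 lower (4.76% each).

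Genes that deliver to the lysosome were more often below than above wildtype. Of 26 sorting receptors and carriers 10 were above wildtype, with a median of -0.08 and 0 at an adjusted p of 0.05 in limma. At an unadjusted p under 0.05, 1 was higher (3.85%) and 3 lower (11.5%), against 11.9% of all genes each way. Both mutants read above both wildtypes in 15.4% and below in 46.2%, against 26.2% and 30.4% of all genes. Vps33a and Vps18, subunits of tethering complexes, stood at -0.33 ± 0.08 and -0.34 ± 0.10, and Vps41 of such a complex at 0.26 ± 0.07. The mannose 6-phosphate receptor genes Igf2r and M6pr stood at 0.18 ± 0.07 and -0.01 ± 0.07. Of 25 autophagy genes 14 were above wildtype, with a median of 0.02 and 0 at an adjusted p of 0.05 in limma. At an unadjusted p under 0.05, 4 were higher (16%) and 0 lower, against the same 11.9% each way. Both mutants read above both wildtypes in 40% and below in 24%. Map1lc3a, a coat protein of autophagosomes, stood at 0.62 ± 0.08 (adjusted p = 0.0506), Sqstm1, a cargo receptor, at 0.27 ± 0.07 (adjusted p = 0.125) and Map1lc3b at 0.28 ± 0.07 (adjusted p = 0.137).

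**Figure D4:**
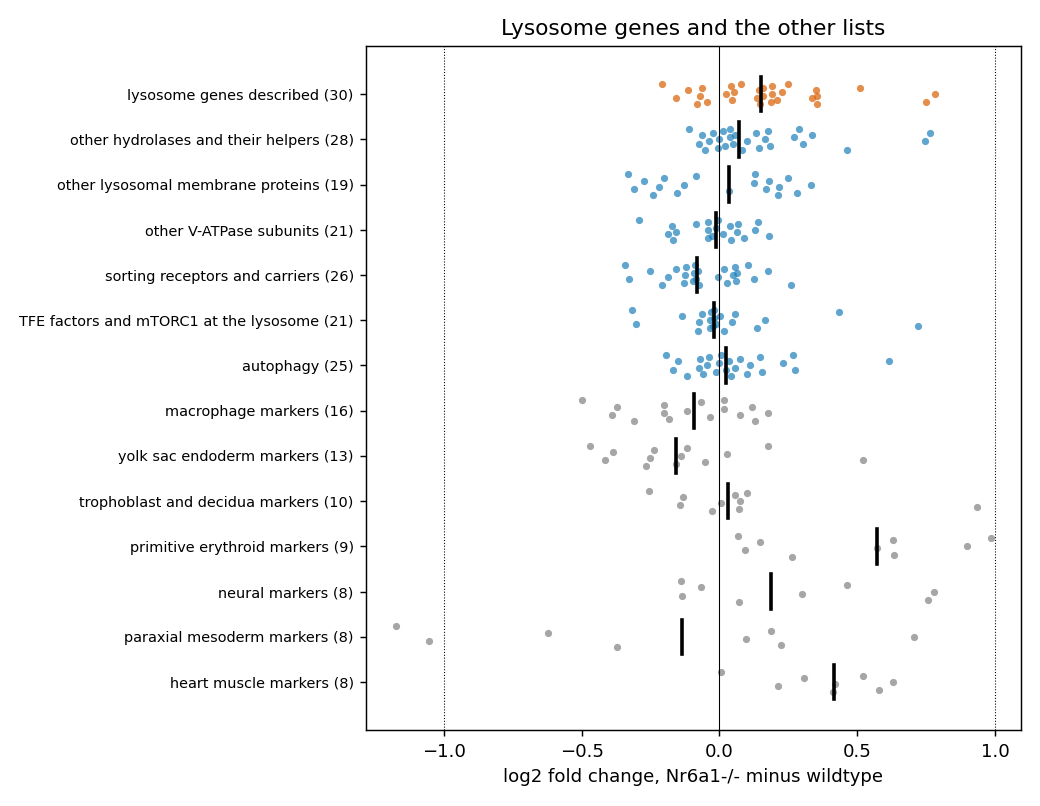
Difference of mean log2 signal, mutants minus wildtypes (horizontal axis), for every measured gene (points) in the lysosome set (orange), other lists of the lysosomal and autophagy pathway (blue) and cell type markers (grey), with list medians as black bars and 2-fold changes as dotted lines; numbers in brackets are genes measured. The lysosome median of 0.15, with or without Psap, lies above those of the 6 blue lists (-0.08 to 0.07).

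Markers of cell types rich in lysosomes were more often below than above wildtype, with genes on both sides. Of 16 macrophage markers 6 lay above wildtype (37.5%, against 47.2% of all genes). The mean log2 signal of the 16 was 5.89 and 5.88 in wildtype and 5.77 in both mutants. Only 5 of the 16 had a mean of at least 6, and Csf1r, the receptor that defines the lineage, stood at 0.12 ± 0.07. The smallest p-values were those of Tyrobp at -0.39 ± 0.09, Fcer1g at -0.50 ± 0.12 and Ptprc at -0.37 ± 0.12. Tyrobp and Ptprc had means under 6. At an unadjusted p under 0.05 in limma, 0 macrophage markers were higher and 3 lower (18.8%), against 11.9% of all genes each way. Of 13 yolk sac endoderm markers 3 lay above wildtype (23.1%). Their mean signals were 12.85 and 12.73 in wildtype and 12.73 and 12.58 in mutants, where the genotypes overlapped. The smallest p-values there were those of Lrp2 at 0.52 ± 0.09, Hnf4a at -0.47 ± 0.08 and Apom at -0.42 ± 0.10. At an unadjusted p under 0.05 in limma, 1 yolk sac marker was higher (7.69%) and 3 lower (23.1%), against the same 11.9% each way. Bright yolk sac genes such as Ttr, at 14.61 and 14.53 in wildtype and 14.52 and 14.32 in mutants, were present on all arrays. Of 10 trophoblast and decidua markers 1, Dcn, had a mean of at least 6. Dcn stood at 0.93 ± 0.23 (adjusted p = 0.122).

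Markers of blood and heart lay on the same side as the set. All 9 primitive erythroid markers were above wildtype (median 0.57), with mean signals of 11.29 and 11.49 in wildtype and 11.93 and 11.81 in mutants. All 8 heart muscle markers were above wildtype as well (median 0.42), with means of 11.32 and 11.57 against 11.85 and 11.81. At an unadjusted p under 0.05 in limma, 66.7% of the erythroid and 62.5% of the heart markers were higher and 0% lower. Both mutants read above both wildtypes in 88.9% and 87.5% of them. The set without Psap had 37.9% and 55.2%, and all genes 11.9% and 26.2%. The erythroid genes Gata1 and Alas2 are X-linked, and wildtype replicate 1 had the signals of a female. Neural markers had 5 of 8 above wildtype (median 0.19), among which the neuronal gene Map2 was higher at 0.76 ± 0.07 (adjusted p = 0.0282). Paraxial mesoderm markers had 4 of 8 above (median -0.14). At an unadjusted p under 0.05 in limma, 50% of the neural markers were higher and 0% lower, and 25% and 50% of the mesoderm markers. The part of tissue proportions in the lysosome values was not tested.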

How the data were processed

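The authors deposited log2 signal values of 4 arrays, made with RMA (background correction, quantile normalisation and probe summary). Its version and chip definition are not given in the sources used. RMA removes a shift of most transcripts, and unspecific hybridisation shrinks the changes of dim probe sets. Of 45101 probe sets, 64 controls were left out. The platform annotation gave 34945 of the other 45037 a single symbol, 932 several and 9160 none, and 99.4% of single symbols matched RefSeq genes of GRCm38.p6 by Entrez identifier. Genotype was the single term of a linear model in limma 3.58.1 (lmFit, eBayes; R 4.3.3), with no filter and Benjamini-Hochberg adjustment over 45037 probe sets. The number of arrays limits the precision, and nothing says that embryos of a genotype came from separate litters.

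The members and lists were chosen with earlier results of these data known. Of 227 genes in the other lists, 15 had no matched probe set. All members are named; values of every embryo are given for Psap, members at an adjusted p of 0.05, and the 4 highest and 4 lowest, and for further members and list genes chosen after their values were seen. The list genes named by rule were those with the smallest p. Alternatives were the replicate block, each array left out, a floor on mean log2 signal of 6, repeated quantile normalisation, median centring, an intensity trend, robust eBayes, no fold threshold, leaving out probe sets of shared sequence, and, per gene, the mean of all or the one with the lowest p. The fit was tested on simulated data of 45037 probe sets with 50 planted changes. At a planted log2 change of 1, 28% were called, at 1.5 94%, at 2 96% and at 3 100%, with 5 unchanged probe sets called. Most planted 2-fold changes were thus missed. Promoter sequences are from RefSeq.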

Additional observations from a re-analysis of the deposited data

How the results depend on the processing

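With 2 arrays per genotype, calls over all genes depended on every array. In limma 22 genes were called lower and 77 higher; leaving out 1 array gave 0 to 1 lower and 0 to 4 higher, and the replicate block 0 and 0 (11 of 29 members and 3956 genes at an unadjusted p under 0.05). A lone array of a genotype was assumed to vary like the other pair. Deviations of arrays with equal replicate numbers correlated at r = 0.06 over probe sets. With 2 arrays per genotype this cannot show whether embryos of equal number were paired. The intensity trend gave 41 lower and 113 higher, with 5165 genes at an unadjusted p under 0.05 against 4336 in the main fit. The floor of 6 gave 30 lower and 98 higher, repeated quantile normalisation 29 and 99, and the mean of all probe sets 27 and 86. No fold threshold gave 68 lower and 186 higher. Under the other alternatives, the share of all genes at an adjusted p of 0.05 whatever the fold was not counted. The member counts whatever the fold thus stand without that share. Of the 29 members tested, 0 were called under each alternative, except for 1 higher with no fold threshold, Grn. Whatever the fold, members at an adjusted p of 0.05 numbered 0 with the replicate block and with each array left out, 1 (Grn) with median centring, robust eBayes, no shared-sequence probe sets or the lowest p, 4 with the floor of 6 (Ctsa, Hexa, Glb1 and Grn), 2 with repeated quantile normalisation (Glb1 and Grn), 3 with the mean of all probe sets (Hexa, Glb1 and Grn) and 10 with the intensity trend (these 4 with Ctsb, Ctsl, Ctsz, Asah1, Npc2 and Atp6v0d1); the cause was not tested.

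The members' median of 0.15 stayed above 0 in all settings: 0.138 to 0.160 with 1 array left out, 0.156 with repeated quantile normalisation, 0.130 with median centring, 0.127 with all probe sets averaged and 0.189 when the lowest p chose the probe set. Between 21 and 23 of the 30, Psap always among them, lay above wildtype. Members near 0 changed side. With 1 array left out these were Ctsh (-0.171 to 0.00597), Lamp2 (-0.0847 to 0.132), Sgsh (-0.0554 to 0.149), Npc1 (-0.117 to 0.0253), Tfeb (-0.0539 to 0.209) and Atp6v1h (-0.00143 to 0.107). Scarb2 (-0.134 to -0.00458) and Lipa (0.00542 to 0.0770) kept their side but moved by over 1.5 times. So did Ctsa (0.226), Ctsb (0.0561), Ctsc (-0.0298), Ctsl (0.0368), Lamp2 (0.0931), Npc2 (0.120), Gusb (-0.102) and Atp6v1h (0.0216) with all probe sets averaged, and Gla (0.358), Lamp2 (0.199), Mcoln1 (0.260) and Atp6v1h (0.113) with the lowest p. With all probe sets averaged and with the lowest p, Sgsh read -0.0217 and -0.0900, Neu1 0.0169 and 0.106, and Lipa -0.0229 and -0.0960, with -0.0960 also for Lipa without shared-sequence probe sets; the cause was not tested.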
